A study of Saccharomyces cerevisiae with 7 samples.

Results

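The genes described here encode subunits of the machines that carry signals from DNA-bound regulators to RNA polymerase II in budding yeast, Saccharomyces cerevisiae. They are 49 genes of Mediator, of the nucleosome remodeller SWI/SNF, of the histone acetyltransferase complex SAGA, and of the remodellers Isw1, Isw2 and Chd1. The genes were listed by name, and a probe set was taken where the array's annotation gives it one of those names. That found 48 of the 49, each with 1 probe set, among 5449 genes measured: 23 of Mediator, 9 of SWI/SNF, 12 of SAGA and 4 of the Isw1, Isw2 and Chd1 group. SRB4, for a head subunit of Mediator, had no named probe set and is not analysed here.

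Total RNA of 7 samples was hybridised, 1 per Affymetrix array, all from the haploid alpha strain BY4742 grown on rich medium with 2% glucose to an OD600 of 0.8. The groups were wild type (3 arrays), a deletion of SSN6, whose gene is now called CYC8 (2 arrays), and a deletion of TUP1 (2 arrays). Each strain was run in duplicate according to the submitters' design note, but wild type has 3 labelled samples, and none was left out. Every group also lacks the strain's own auxotrophic genes, among them LYS2 and URA3, which were under the background floor on all 7 arrays, while MET17, intact in this strain, read 12.00 to 13.12 on the log2 scale. LEU2, also deleted in this strain, lay near the floor at 5.47 to 5.80, and STE3, for the a-factor receptor of alpha cells, read 12.41, 12.17 and 12.31 in wild type. The deletion alleles, the number of clones and whether replicates were separate cultures are not given in the sources used here. The p-values therefore reflect only how far these samples scatter, and that scatter may be technical. The labels of both deletions held, with a CYC8 difference of −5.42 ± 0.16 (SE) in the ssn6 deletion and TUP1 at least 92.7-fold lower in the tup1 deletion (limma adjusted p = 3.31e-06 and 9.61e-06).

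Ssn6 and Tup1 form a corepressor that sequence-specific proteins bring to promoters, where it keeps genes off. Mediator links such regulators to RNA polymerase II through its head, middle and tail modules, and a kinase module that comes and goes can restrain it. SWI/SNF slides or evicts nucleosomes, SAGA acetylates histones and helps to deliver the TATA-binding protein, and Isw1, Isw2 and Chd1 space nucleosomes. Several of these genes have reported ties to the corepressor. The SSN genes were isolated as suppressors of snf1, and SRB7 encodes a Mediator subunit reported to bind Tup1. SWI/SNF and SAGA are needed for many genes that the corepressor represses. The series title names nucleosome organization and transcription under the corepressor, so a change in these subunit genes would bear on what else differs in the deletion strains.

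Every level is given on the log2 scale. A difference is a mean of the deletion's arrays minus a mean of the wild-type arrays on that scale, given with its standard error, and a call is an adjusted p under 0.05 over all 5449 genes in 1 limma fit of the 7 arrays. A level of one gene is never set against that of another, because probe sets differ in how well they bind. Median levels over all genes ran from 10.95 to 11.06 on the 7 arrays, and the background floor, taken from fission yeast probe sets, from 5.50 to 5.67. No member was under the floor on any array, the lowest value being 7.10 for NUT2. In wild-type replicate 2 the 3′ control probe set of actin exceeded the 5′ control by 2.06, and in the other 6 arrays by 0.30 to 0.61. In cultures measured in bulk, fewer expressing cells and less RNA per cell cannot be told apart.

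In the ssn6 deletion a few of these genes were modestly lower and none was higher past the test. Of the 48 members 7 fell, MED6 and CSE2 of Mediator, SNF11 of SWI/SNF, NGG1, HFI1 and SPT3 of SAGA, and ISW1, by 1.54-fold to 2.36-fold. That is 14.6% of the members, while 10.3% of all genes fell and 9.18% rose (19.4% called in all). At an unadjusted p under 0.05, 20 members were lower and 2 higher, against 22.8% and 13.4% of all genes (36.2% in either direction). The median difference of the members was −0.38, that of all genes −0.14. The difference was above 0 for 11 of 48 members and for 36.4% of all genes. Over all genes 500 rose and 559 fell, a split that became 617 and 280 after the centring described next.

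**Figure D1:**
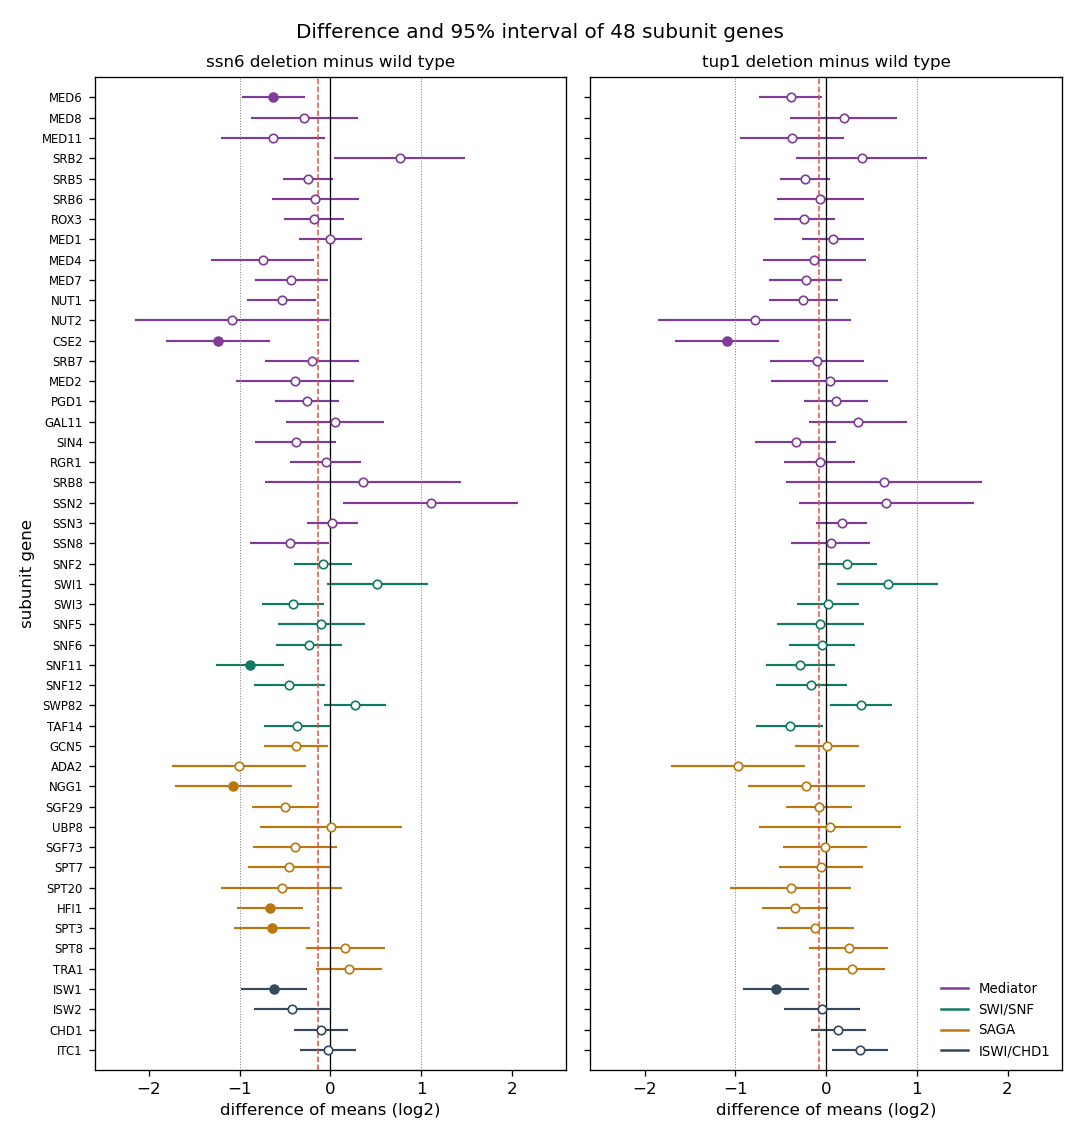
Differences of 48 subunit genes from wild type in the ssn6 deletion (left) and the tup1 deletion (right), on the log2 scale. Points are differences of means over 2 deletion and 3 wild-type arrays, bars are 95% intervals of the limma fit, filled points passed an adjusted p of 0.05, the dashed line is the median of all genes and the dotted lines mark 2-fold. Filled points are 7 on the left and 2 on the right, all below 0.

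These 7 calls rest on having both ssn6 arrays. None was kept when either was left out and the remaining one was assumed to vary like the other groups. Most calls over all genes were lost there too, so this loss is not particular to the members. Without ssn6 replicate 1 or 2 the median difference of the members was −0.30 or −0.35, and that of all genes −0.15 or −0.12. With array weights 19 members passed, 17 lower and 2 higher (SRB2 and SSN2). Calls over all 5449 genes grew as well, to 2139 (1353 lower and 786 higher). Without wild-type replicate 1, 3 members passed, and without wild-type replicate 2, 10 did, among them all 7. Over all genes 770 and 1196 passed in these 2 settings. When each array was shifted so that the median gene did not differ from wild type, a centring chosen after seeing the data, 2 of the 7 stayed, CSE2 and SNF11, and the median of the members was −0.23.

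In the tup1 deletion still fewer members passed. CSE2 and ISW1 fell and 0 members rose, so 4.17% of the members were called, against 23.0% of all genes (12.6% lower and 10.4% higher). At an unadjusted p under 0.05, 5 members were lower and 3 higher, against 22.2% and 16.2% of all genes (38.4% in either direction). The difference was above 0 for 20 of 48 members and for 43.3% of all genes. The median difference was −0.06 for the members and −0.08 for all genes. Over all genes 567 rose and 688 fell, and with the centring above 661 and 529. Both calls were lost without wild-type replicate 3, where 1019 of all 5449 genes passed, and without either tup1 array. The ISW1 call was also lost without either ssn6 array. Without wild-type replicate 2, 3 members and 1366 of all genes passed.

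The intervals say how large a change these arrays leave room for. In the ssn6 deletion the 95% interval lay wholly within 2-fold of wild type for 33 of 48 members, and for 67.4% of all genes. In the tup1 deletion this held for 40 members and 66.0% of all genes. A known target of the corepressor, picked with its values known, moved much further in the same fit. This was the alpha-factor receptor gene STE2, an a-specific gene that Ssn6 and Tup1 keep off in alpha cells. It was higher by 4.05 ± 0.18 without Ssn6 and by 2.67 ± 0.18 without Tup1 (limma adjusted p = 1.67e-05 and 0.000133).

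**Figure D2:**
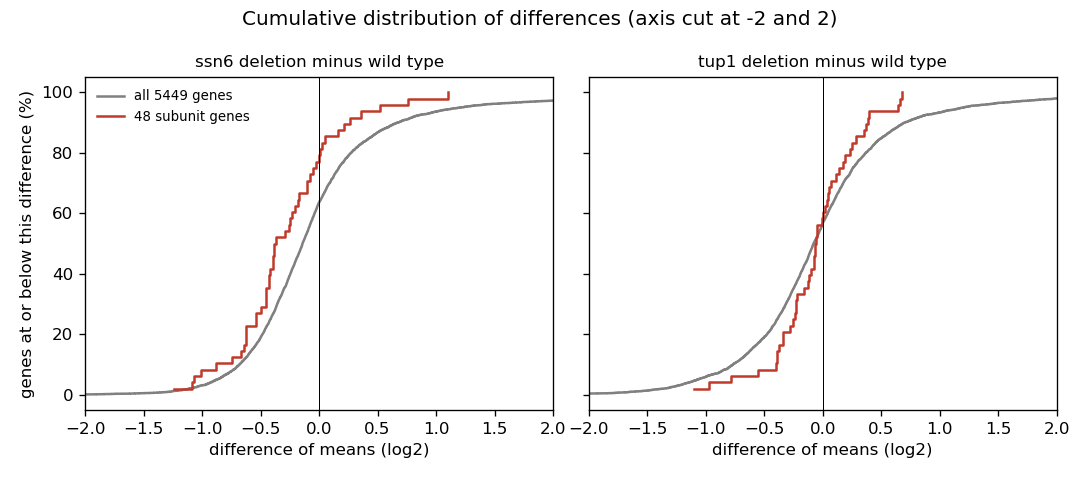
Cumulative share of genes (percent) by their log2 difference from wild type, for the 48 subunit genes and all 5449 genes, in the ssn6 deletion (left) and the tup1 deletion (right). The axis ends at −2 and 2. The subunit curve lies left of the curve of all genes over most of its range in the ssn6 deletion (medians −0.38 and −0.14), and the medians are −0.06 and −0.08 in the tup1 deletion, where the members span −1.10 to 0.68.

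Mediator's head contacts RNA polymerase II. Of its 7 measured subunit genes 1 fell in the ssn6 deletion and 0 in the tup1 deletion, beside 10.3% and 12.6% of all genes. MED6, for a conserved head subunit, read 10.41, 10.16 and 10.14 in wild type, 9.57 and 9.65 in the ssn6 deletion and 9.75 and 9.94 in the tup1 deletion. Both deletions lay under every wild-type array, and the difference was −0.63 ± 0.15 without Ssn6 (limma adjusted p = 0.0257) and −0.39 ± 0.15 without Tup1 (adjusted p = 0.0949). The ssn6 call was lost with the replicate block and with the centring chosen after seeing the data. It was also lost without wild-type replicate 1 or either ssn6 array.

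SRB2, for the head subunit Med20, had the highest difference of the head genes, and its size depended on 1 array. It read 11.27, 10.35 and 11.43 in wild type and 11.81 and 11.75 in the ssn6 deletion, 0.76 ± 0.31 above (adjusted p = 0.122). Without wild-type replicate 2, the low one, the difference was 0.43 ± 0.13 (adjusted p = 0.0642), and with array weights it was 0.59 and passed (adjusted p = 0.0299). In the tup1 deletion it read 11.33 and 11.49, which overlapped wild type. SRB5, for Med18, which pairs with Srb2, kept to a narrow band, with 9.92 to 9.95 in wild type, 9.64 and 9.74 without Ssn6 and 9.70 and 9.71 without Tup1. The differences of −0.25 ± 0.12 and −0.23 ± 0.12 did not pass (adjusted p = 0.178 and 0.198). MED11, for a further head subunit, read 10.60, 11.39 and 10.78 in wild type, 10.38 and 10.21 without Ssn6 and 10.42 and 10.68 without Tup1. Both ssn6 arrays lay under wild type and the tup1 arrays overlapped it (−0.63 ± 0.24, adjusted p = 0.111, and −0.38 ± 0.24, adjusted p = 0.296). MED8, SRB6 and ROX3, which complete the measured head, lay between −0.29 and −0.17 without Ssn6 and between −0.24 and 0.19 without Tup1, none past the test.

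The middle module joins head and tail, and it held the largest fall of the whole set. CSE2, for the subunit Med9, read 10.31, 11.11 and 10.96 in wild type, 9.48 and 9.63 in the ssn6 deletion and 9.59 and 9.80 in the tup1 deletion. All 4 deletion arrays lay under the lowest wild-type array. The gene was 2.36-fold lower without Ssn6 (−1.24 ± 0.24, limma adjusted p = 0.0149) and 2.14-fold lower without Tup1 (−1.10 ± 0.24, adjusted p = 0.0202), and it ranked 73rd from the bottom of 5449 genes in the first comparison and 257th in the second. The ssn6 call needed both ssn6 arrays (adjusted p of at most 0.116 with 1 of them). The tup1 call was lost with array weights and when wild-type replicate 3 or a tup1 array was dropped, with an adjusted p reaching 0.14. The deletions differed from each other by −0.14 ± 0.27 (adjusted p = 0.786).

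NUT2, for the essential subunit Med10, had nearly as large a difference and a wide error. It read 9.01, 7.47 and 8.53 in wild type, 7.18 and 7.32 in the ssn6 deletion and 8.0 and 7.10 in the tup1 deletion. Wild-type replicate 2 lay beside the deletions, apart from the other wild-type arrays. The differences were −1.09 ± 0.45 and −0.79 ± 0.45 (adjusted p = 0.132 and 0.244), and without that array −1.52 ± 0.32 and −1.22 ± 0.32, both past the test (adjusted p = 0.0238 and 0.0399). In MED4 wild-type replicate 2 was the high array. The gene read 10.94, 11.66 and 10.86 in wild type, 10.42 and 10.40 without Ssn6, and 11.03 and 11.02 without Tup1. Its difference in the ssn6 deletion was −0.74 ± 0.24 (adjusted p = 0.0705), and without wild-type replicate 2 it was −0.49 ± 0.11 and passed (adjusted p = 0.0303). NUT1, for Med5, had −0.54 ± 0.16 without Ssn6 (adjusted p = 0.0574). MED1 stayed at 10.26 and 10.27 without Ssn6 against 10.42, 10.09 and 10.29, a difference of 0.00 with a 95% interval of −0.34 to 0.34. MED7 had −0.43 ± 0.17 and −0.22 ± 0.17 (adjusted p = 0.119 and 0.377). SRB7, for Med21, the subunit reported to bind Tup1, had −0.20 ± 0.22 and −0.10 ± 0.22 (adjusted p = 0.541 and 0.774).

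The tail takes up signals from activators, and 0 of its 5 genes passed in either deletion. Of all genes 19.4% passed without Ssn6 and 23.0% without Tup1. GAL11, for the activator-binding subunit Med15, read 12.37, 12.04 and 11.77 in wild type, 12.06 and 12.16 without Ssn6 and 12.69 and 12.13 without Tup1, and the groups overlapped. RGR1, for Med14, the scaffold that ties the modules together, had −0.05 ± 0.16 and −0.07 ± 0.16, with 95% intervals of −0.44 to 0.33 and −0.46 to 0.32. MED2 and SIN4 had −0.39 ± 0.27 and −0.38 ± 0.19 in the ssn6 deletion (adjusted p = 0.34 and 0.191), and SIN4 had −0.34 ± 0.19 in the tup1 deletion (adjusted p = 0.236). PGD1, for Med3, had −0.26 ± 0.15, with 10.23 and 10.25 without Ssn6 under all 3 wild-type arrays (10.31 to 10.69).

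The kinase module phosphorylates the polymerase and regulators and opposes the rest of Mediator at some genes, and it is the part with the closest genetic ties to the corepressor. None of its 4 genes passed in either deletion, beside 19.4% of all genes without Ssn6 and 23.0% without Tup1. SSN3, for the kinase Cdk8, was among the steadiest genes of the set, at 10.56, 10.57 and 10.60 in wild type, 10.61 and 10.58 without Ssn6 and 10.81 and 10.70 without Tup1. Its differences were 0.02 ± 0.12 and 0.17 ± 0.12, with 95% intervals of −0.26 to 0.30 and −0.11 to 0.46. SSN8, for its partner cyclin C, read 9.59 and 10.04 without Ssn6 against 10.41, 10.21 and 10.18 in wild type (−0.45 ± 0.18, adjusted p = 0.127), and 0.05 ± 0.18 separated wild type from the tup1 deletion.

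SSN2, for the kinase module subunit Med13, had the highest difference of all members in the ssn6 deletion, and it depended on wild-type replicate 2. It read 10.29, 9.02 and 10.21 in wild type, 10.92 and 10.96 without Ssn6 and 10.91 and 10.10 without Tup1. The difference of 1.10 ± 0.41 without Ssn6 did not pass (limma adjusted p = 0.0997), and without wild-type replicate 2 it was 0.70 ± 0.26 (adjusted p = 0.107). With array weights it was 0.85 and passed (adjusted p = 0.0257). SRB8, for Med12, varied most among the wild-type arrays, with 9.61, 8.04 and 9.26. Its differences were 0.36 ± 0.46 and 0.64 ± 0.46 (adjusted p = 0.599 and 0.344), and without wild-type replicate 2 they were −0.10 ± 0.28 and 0.18 ± 0.28, so that its direction in the ssn6 deletion was set by that array. SRB8 lies 3 genes from TUP1 on its chromosome.

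**Figure D3:**
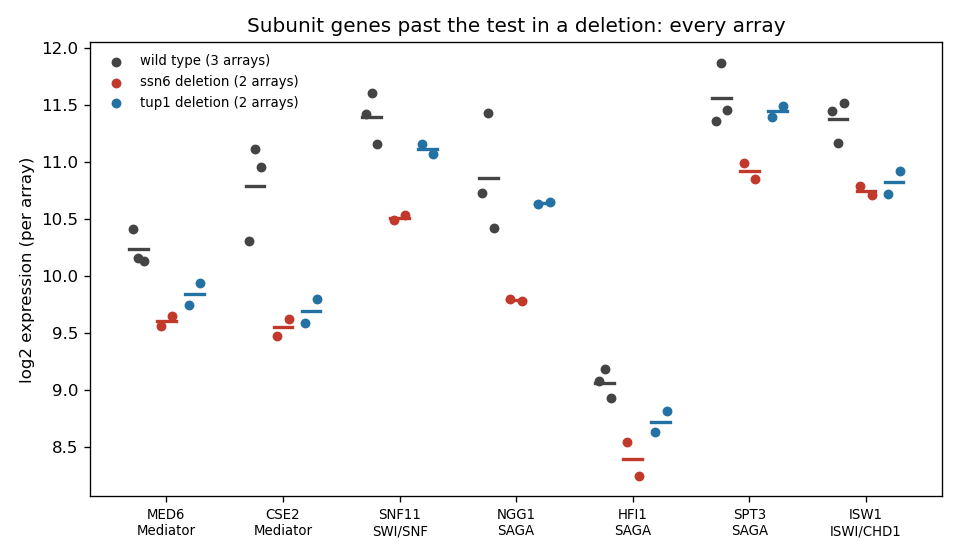
Log2 level on every array for the 7 subunit genes that passed the test in a deletion, with wild type (3 arrays), ssn6 deletion (2) and tup1 deletion (2) side by side. Points are arrays and bars are group means; for all 7 genes both ssn6 arrays lie under all wild-type arrays, and CSE2 and ISW1 also passed the test in the tup1 deletion.

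In SWI/SNF, 1 of 9 genes fell in the ssn6 deletion and 0 in the tup1 deletion, beside 10.3% and 12.6% of all genes. SNF11, for a small subunit that binds the Snf2 ATPase, read 11.42, 11.60 and 11.16 in wild type, 10.49 and 10.53 without Ssn6 and 11.15 and 11.07 without Tup1. The ssn6 arrays lay apart from all other arrays. It was 1.84-fold lower without Ssn6 (−0.88 ± 0.16, limma adjusted p = 0.0105, the lowest adjusted p of any member), and had −0.28 ± 0.16 without Tup1 (adjusted p = 0.236). The test between the deletions gave −0.60 ± 0.17 and did not pass (adjusted p = 0.133). The call against wild type needed both ssn6 arrays (adjusted p of at most 0.104 with 1 of them).

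The catalytic subunit of SWI/SNF was not among the genes that moved. SNF2, for the ATPase, read 12.62, 12.49 and 12.33 in wild type, 12.41 and 12.39 without Ssn6 and 12.75 and 12.67 without Tup1. Its differences were −0.08 ± 0.14 and 0.23 ± 0.14, with 95% intervals of −0.40 to 0.24 and −0.09 to 0.56. SWI1, for a large subunit that activators contact, was the member with the highest difference in the tup1 deletion. It read 10.61, 10.09 and 9.98 in wild type, 10.68 and 10.81 without Ssn6 and 11.17 and 10.65 without Tup1, above every wild-type array in both. The differences of 0.52 ± 0.24 and 0.68 ± 0.24 did not pass (adjusted p = 0.161 and 0.0788). The second passed without wild-type replicate 1, at 0.87 and an adjusted p of 0.0418.

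The other SWI/SNF genes did not pass in either deletion. SWP82, for an accessory subunit, also lay above every wild-type array in both deletions, by 0.27 ± 0.15 and 0.39 ± 0.15 (adjusted p = 0.229 and 0.0971). SWI3 and SNF12, for structural subunits, lay under every wild-type array without Ssn6, by −0.42 ± 0.15 and −0.45 ± 0.17 (adjusted p = 0.0862 and 0.0977), and read 0.02 and −0.16 without Tup1. TAF14, for a subunit that SWI/SNF shares with the general factors TFIID and TFIIF, lay under wild type in both deletions, by −0.37 ± 0.16 and −0.40 ± 0.16 (adjusted p = 0.133 and 0.102). With array weights SWI3, SNF12 and TAF14 passed in the ssn6 deletion (adjusted p = 0.0119, 0.022 and 0.0362). SNF5 and SNF6 had −0.10 and −0.23 without Ssn6 and −0.06 and −0.05 without Tup1.

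Of the 12 SAGA genes 3 fell in the ssn6 deletion and 0 in the tup1 deletion, beside 10.3% and 12.6% of all genes. Its median difference was −0.47 without Ssn6 and −0.07 without Tup1. Its mean level, taken over the same 12 probe sets on every array, was 10.62, 10.71 and 10.40 in wild type, 10.19 and 10.08 without Ssn6, and 10.53 and 10.35 without Tup1. In 7 of the 12 genes the ssn6 arrays were the lowest 2 of the 7 arrays. That held for 17 of 48 members and for 18.2% of all genes, while both ssn6 arrays were highest for 2 members and 9.27% of all genes. Whether SAGA differs in this from the other complexes was not tested.

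The median of SAGA's 4 acetyltransferase module genes was −0.75 without Ssn6. NGG1, for Ada3, which joins the enzyme to the complex, read 10.73, 11.43 and 10.42 in wild type, 9.80 and 9.78 without Ssn6 and 10.63 and 10.65 without Tup1. Only the ssn6 arrays lay outside the wild-type range. The gene was 2.10-fold lower without Ssn6 (−1.07 ± 0.27, limma adjusted p = 0.0352) and had −0.22 ± 0.27 without Tup1 (adjusted p = 0.591). Between the deletions the difference was −0.85 ± 0.30 and did not pass (adjusted p = 0.192). Without wild-type replicate 2, where NGG1 was high, the spread was smaller: the difference from wild type was −0.79 ± 0.14 (adjusted p = 0.0152) and that between the deletions passed at −0.85 ± 0.14 (adjusted p = 0.0342). The call against wild type was lost without wild-type replicate 1 or any 1 deletion array. It was also lost with the centring chosen after seeing the data. Comparing only the genotypes is the same fit as leaving out a tup1 array, so its loss there is not a further one.

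ADA2, for the subunit that stimulates Gcn5, was low in both deletions and uneven within each. It read 10.14, 9.79 and 9.92 in wild type, 9.36 and 8.51 without Ssn6 and 9.37 and 8.58 without Tup1. All 4 deletion arrays lay under wild type, with 1 array of each deletion lower than the other by over 0.7. The differences of −1.01 ± 0.31 and −0.98 ± 0.31 did not pass (adjusted p = 0.0628 and 0.0636). With array weights the first passed (adjusted p = 0.0489). GCN5, for the acetyltransferase itself, read 10.83, 10.66 and 10.45 in wild type, 10.24 and 10.29 without Ssn6 and 10.67 and 10.63 without Tup1 (−0.38 ± 0.15, adjusted p = 0.113, and 0.01 ± 0.15, adjusted p = 0.981). SGF29, for a subunit that reads methylated histone tails, had −0.50 ± 0.15 and −0.08 ± 0.15 (adjusted p = 0.0629 and 0.746).

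Of SAGA's 3 core genes 1 fell without Ssn6, as did 1 of 2 genes for TBP-binding subunits, beside 10.3% of all genes. HFI1, for the structural subunit Ada1, read 9.08, 9.19 and 8.93 in wild type, 8.54 and 8.25 without Ssn6 and 8.63 and 8.82 without Tup1. Both deletions lay under wild type, by −0.67 ± 0.16 (limma adjusted p = 0.0258) and −0.34 ± 0.16 (adjusted p = 0.153). SPT3, for a subunit that binds the TATA-binding protein, read 11.36, 11.87 and 11.46 in wild type, 10.99 and 10.85 without Ssn6 and 11.40 and 11.49 without Tup1. It was lower by −0.64 ± 0.18 without Ssn6, close to the threshold (adjusted p = 0.0448), and had −0.12 ± 0.18 without Tup1 (adjusted p = 0.661). HFI1 lost its call with the replicate block, another variance setting or the centring chosen after seeing the data. Dropping wild-type replicate 1 or an ssn6 array also lost it. SPT3 lost its call with quantile normalization, median centring, only the genotypes compared, the replicate block and the centring chosen after seeing the data. It was lost too without wild-type replicate 3 or any 1 deletion array. Leaving out a tup1 array is here the same fit as comparing only the genotypes. SPT8, the partner of Spt3, moved the other way without passing, by 0.16 ± 0.19 and 0.25 ± 0.19. SPT7 and SPT20, structural too, had −0.45 ± 0.20 and −0.54 ± 0.28 without Ssn6 (adjusted p = 0.143 and 0.216), and SPT20 had −0.39 ± 0.28 without Tup1 (adjusted p = 0.353).

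The remaining SAGA genes did not pass in either deletion. TRA1, for the large subunit that activators bind, had 0.21 ± 0.15 and 0.28 ± 0.15 (adjusted p = 0.366 and 0.223). UBP8, for the histone deubiquitinase, read 10.60, 9.37 and 10.16 in wild type, 9.97 and 10.14 without Ssn6 and 10.23 and 9.94 without Tup1, so all deletion arrays fell within the wild-type range. SGF73, which anchors that enzyme, had −0.39 ± 0.20 and −0.01 ± 0.20 (adjusted p = 0.196 and 0.979).

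Of the spacing remodellers, ISW1 passed the test as lower in both deletions, but most alternatives lost the tup1 call. It encodes the ATPase of the Isw1 complexes and read 11.44, 11.17 and 11.51 in wild type, 10.79 and 10.71 without Ssn6 and 10.72 and 10.92 without Tup1. All 4 deletion arrays lay under the wild-type arrays. It was 1.54-fold lower without Ssn6 (−0.63 ± 0.15, limma adjusted p = 0.0311) and 1.47-fold lower without Tup1 (−0.55 ± 0.15, adjusted p = 0.042). Of 17 alternatives at the same threshold the ssn6 call held in 9 and the tup1 call in 5. These are not 17 separate checks. Leaving out 1 array of the deletion not compared is the same fit as comparing only the genotypes. The filter at the floor and probe set means changed no member's values. Neither call held with median centring, the replicate block or the centring chosen after seeing the data. That block takes its differences from wild-type replicates 1 and 2 alone. Both calls were lost when wild-type replicate 1 or 3 or an ssn6 array was dropped. The tup1 call was lost, too, with quantile normalization, with only the genotypes compared and without either tup1 array.

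ISW2, for the ATPase that acts with the corepressor in placing nucleosomes at some repressed promoters, read 11.35, 11.84 and 11.37 in wild type, 11.14 and 11.05 without Ssn6 and 11.42 and 11.53 without Tup1. The difference of −0.43 ± 0.18 without Ssn6 did not pass (adjusted p = 0.133), and without Tup1 it was −0.05 ± 0.18. ITC1, for the partner of Isw2, read 10.60, 10.71 and 10.61 in wild type, 10.66 and 10.57 without Ssn6 and 10.92 and 11.11 without Tup1. Its tup1 arrays lay above all others, by 0.37 ± 0.13 over wild type (adjusted p = 0.0797). CHD1 had −0.10 ± 0.13 and 0.14 ± 0.13, with 95% intervals of −0.41 to 0.20 and −0.17 to 0.44.

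Set directly against each other, the deletions differed in 0 of 48 members, against 2.40% of all genes (1.91% higher and 0.496% lower in the ssn6 deletion). At an unadjusted p under 0.05 there were 8 members, all lower in the ssn6 deletion, against 9.91% of all genes lower and 9.16% higher (19.1% together). The difference was above 0 for 5 of 48 members and 42.3% of all genes, with medians of −0.24 and −0.07. Both ssn6 arrays lay under both tup1 arrays for 28 members and over them for 2, SRB2 and SSN2, against 39.2% and 24.4% of all genes (63.6% together). The 95% interval lay within 2-fold for 39 members and 72.0% of all genes. NGG1 (−0.85 ± 0.30), MED4 (−0.62 ± 0.26) and SNF11 (−0.60 ± 0.17) had the lowest values, and MED4 passed, like NGG1, without wild-type replicate 2 (adjusted p = 0.0433), an array outside this comparison that enters it through the shared estimate of spread.

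Both deletions share the wild-type arrays, so their differences from wild type are not independent. In the ssn6 deletion 27 members lay under the wild-type range and 4 over it, against 39.1% and 20.3% of all genes (59.4% together). In the tup1 deletion 11 lay under and 8 over it, against 30.0% and 22.0% (52.0% together).

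**Figure D4:**
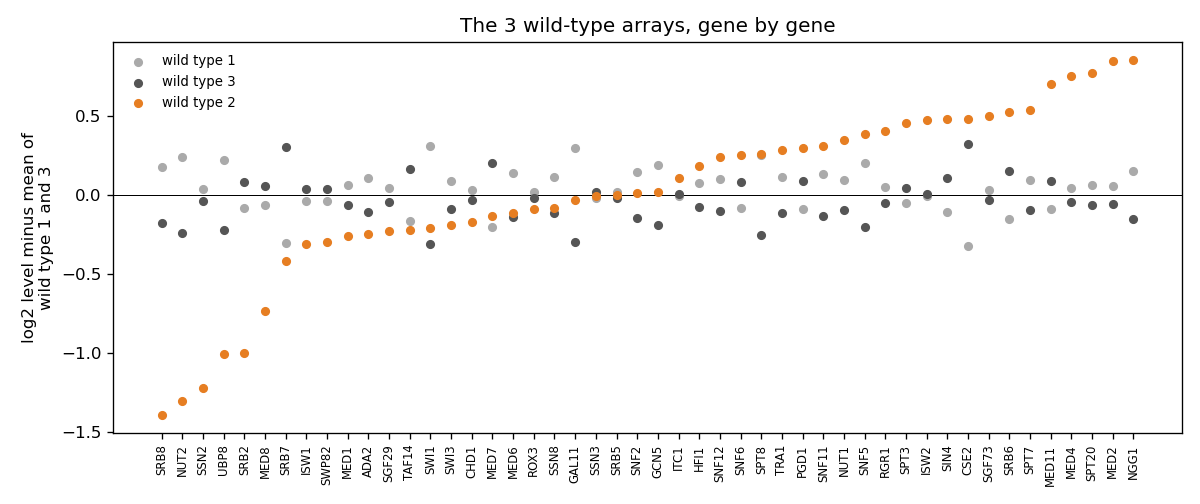
Log2 level of each subunit gene on the 3 wild-type arrays, relative to the mean of replicates 1 and 3, with genes ordered by replicate 2. Points are arrays; replicate 2 runs from −1.39 (SRB8) to 0.85 (NGG1).

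The wild-type arrays set much of this precision. The standard deviation of a member over the 3 wild-type arrays ran from 0.02 for SRB5 and SSN3 to 0.82 for SRB8, with a median of 0.23, and the median over all genes was 0.22. Wild-type replicate 2 lay at least 0.5 from the mean of the other 2 for 14 of 48 members and 22% of all genes, 8 of the members above it and 6 below. SRB8, NUT2, SSN2, UBP8 and SRB2 were lower there by 1.0 to 1.39, and NGG1, MED2 and SPT20 were higher by 0.78 to 0.85. Replicates 1 and 3 differed by at least 0.5 in 5 members and 14.1% of all genes. The difference between pairs of arrays had a standard deviation over members of 0.55 to 0.58 for pairs with replicate 2, of 0.28 for replicates 1 and 3, of 0.19 for the ssn6 pair and of 0.29 for the tup1 pair. The part of the actin control's 3′ excess in this was not tested.

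Related genes also had falls and no rises. Of 18 other genes of these complexes, from a list drawn up with earlier results of these data known, 4 fell and 0 rose in the ssn6 deletion, and 1 fell in the tup1 deletion, beside 10.3% and 12.6% of all genes that fell. They were ARP9 (−1.05 ± 0.19) and ARP7 (−0.68 ± 0.15), for actin-related subunits that SWI/SNF shares with the remodeller RSC, SGF11 (−1.01 ± 0.21), for a subunit of SAGA's deubiquitinase, and IOC4 (−0.50 ± 0.13), for an Isw1 partner (limma adjusted p = 0.0117, 0.0246, 0.0188 and 0.0392). ARP7 fell by 0.67 ± 0.15 in the tup1 deletion too (adjusted p = 0.0232). The medians of that list were −0.39 and −0.29. SUS1, for a further SAGA subunit, borders CYC8 on its chromosome and had −0.52 ± 0.32 in the ssn6 deletion (adjusted p = 0.285).

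Complexes outside the set were counted in the same way, against the same shares of all genes. In the ssn6 deletion the RSC median was −0.47, with 13 of 13 genes below 0. INO80 and SWR1 had −0.33 (19 of 22 below), RNA polymerase II and general factors −0.20 (24 of 28), and TFIID-specific genes −0.23 (7 of 8). Beside these stood −0.38 for the members and −0.14 for all genes. In the tup1 deletion the 4 medians were −0.32, −0.17, −0.02 and −0.15, beside −0.06 and −0.08. Of 13 RSC genes 4 fell without Ssn6 and 2 without Tup1, RSC4 by 1.09 ± 0.20 in the first (limma adjusted p = 0.0117). HTL1, under the floor on both ssn6 arrays, was at least 1.43-fold lower there (adjusted p = 0.0264). It also passed as lower in the tup1 deletion, near the floor (adjusted p = 0.0412). Of 22 INO80 and SWR1 genes 3 fell without Ssn6 and 2 without Tup1, with VPS71 of SWR1 down by 1.21 ± 0.17 in the first (adjusted p = 0.00345). Of 28 genes of RNA polymerase II and its general factors 4 fell without Ssn6 and 6 without Tup1. Among them CCL1, for the cyclin of TFIIH, was lower by 1.13 ± 0.20 without Ssn6 (adjusted p = 0.0104), and its kinase gene KIN28 by 0.93 ± 0.18 and 0.81 ± 0.18 in the respective deletions (adjusted p = 0.0152 and 0.0217). RPB9, for a small polymerase subunit, fell by 0.53 ± 0.13 without Ssn6 and 0.75 ± 0.13 without Tup1 (limma adjusted p = 0.0284 and 0.00763). RPB10 and RPB8, for further polymerase subunits, passed in the tup1 deletion only, by 0.86 ± 0.22 and 0.82 ± 0.15 (adjusted p = 0.033 and 0.00958). Of 8 genes specific to TFIID 0 passed in either deletion. None of these lists had a rise past the test, and 0 rises among the 48 members stood beside 9.18% and 10.4% of all genes.

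Neighbouring genes were looked up after the values were known. Of 94 measured genes next to a member, 10 fell and 6 rose in the ssn6 deletion, near the 10.3% and 9.18% of all genes. Beside the 7 members that fell, 3 of 13 measured neighbours fell as well: GPX2 next to ISW1 (−1.04), SHE9 next to SPT3 (−0.93), and RSM24 (−0.70), which faces NGG1 across their upstream regions (adjusted p = 0.00229, 0.0105 and 0.0195). GPX2, for a glutathione peroxidase, was also lower in the tup1 deletion (−1.65, adjusted p = 0.000264). Of the 8 genes beside CSE2, MED6, SNF11 and HFI1 none passed in either deletion.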

How the data were processed

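The authors deposited 1 log2 value for each probe set and array. Per the submitters' processing notes, RMA and limma were used; neither a version nor the step each served is given. Where RMA's usual quantile step was applied, it would hide a shift shared by most genes, and no detection call comes with such values. Of 10928 probe sets, 5498 have 1 budding yeast gene, 1746 belong to fission yeast, 1 has several genes and 3683 have none in the annotation used. Symbols follow assembly R64, which changed 12 and also gave gene order. Of several probe sets (47 genes), that of highest mean stood for the gene. One mean per genotype was fitted to the 7 arrays with limma 3.58.1 (lmFit, eBayes, two-sided, Benjamini-Hochberg over 5449 genes) in R 4.3.3, with 4 residual and 3.19 prior degrees of freedom. The floor is the 95th percentile of the fission yeast probe sets on an array. A gene under it on all arrays of a group has only a bound there, computed per array from the floor or from the gene's own value where that is higher. The procedure was tested on simulated data. Members and lists were chosen with earlier results of these data known. Named by rule were members past the test, the 2 with the largest difference per complex or Mediator module in each deletion, and up to 4 genes past the test per related list and comparison; other members and STE2 were named with their values known. Alternatives were other normalizations, a filter at the floor, other variance settings, array weights, a replicate block, probe set means, a stricter threshold and leaving out each array. The number of arrays limits the precision. Python 3.11.15 with matplotlib 3.10.9 drew the plots.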

Additional observations from a re-analysis of the deposited data

How the results depend on the processing

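Of the 9 calls on members, none changed sign under any alternative run. Over their alternatives 97 kept the call and 65 lost it. Probe set means and the filter at the floor count among those kept, although neither changed a member's values. All 48 members have 1 probe set and lie above the floor. Comparing only the genotypes and leaving out either array of the other deletion are the same fit, so its outcome is counted more than once. In the ssn6 deletion 7 members passed, all lower, against 19 with array weights (17 lower, 2 higher), 4 with the replicate block, 0 at an adjusted p of 0.01, 2 with difference centring, and 0 to 10 without 1 array. In the tup1 deletion 2 passed, both lower, against 1 with quantile normalization, with median centring, with only the genotypes compared, with array weights and with the crossed numbers, 0 at an adjusted p of 0.01, and 0 to 3 without 1 array (SWI1 higher without wild-type replicate 1). With difference centring ITC1 passed as higher there. Between the deletions 0 members passed, against 1 with only the genotypes compared, 2 with array weights and 0 to 2 without 1 array. Over all genes, 1059 calls in the ssn6 deletion became 2139 with array weights, 397 at the stricter threshold and 279 to 1196 without 1 array. In the tup1 deletion 1255 became 767 with only the genotypes compared, 456 at the stricter threshold and 427 to 1366 without 1 array. Between the deletions 131 became 412 with array weights, 58 with the replicate block, 25 at the stricter threshold and 5 to 257 without 1 array. Same-numbered arrays correlated negatively in their deviations for ssn6 with wild type (r of −0.36 and −0.27) and with tup1 (−0.27), and positively for tup1 with wild type (0.28 and 0.18), so the numbers were not taken to pair the samples. The replicate block called ADA2 lower in both deletions (adjusted p = 0.0264 and 0.0273). With the ssn6 numbers crossed, a pairing chosen after seeing the data, the block gave 9 members in the ssn6 deletion, 8 lower and 1 higher. Both blocks take their differences from wild-type replicates 1 and 2 alone, since number 3 holds only 1 array. Their member medians, −0.29 without Ssn6 and −0.10 without Tup1, equalled those without wild-type replicate 3. The causes were not tested, except that settings which leave out an array or genotype have fewer arrays. All members were above the floor on every array, and how their signal level bears on these shifts was not tested.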
